A study of Canis lupus familiaris with 6 samples.

Results

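Podoplanin knockout in CMM2, a canine melanoma cell line, was examined as 2 single comparisons with 1 shared control: KO 1 against the CMM2 control, and KO 2 against the same control. Members were all genes with at least 10 counts in at least 1 of these 3 libraries, which held for 11220 of the 30951 genes listed. Of these, 8430 had a mean of 10 CPM or more over the 3 libraries (CPM, a gene's count relative to its library's total after TMM scaling) and 2790 lay below it. At the edge of the rule, 73 members had a highest count under 11, and 119 genes with a highest count of 9 or more fell just short of it. The other line of the series, CMM12, has the same layout of 1 control and 2 podoplanin KO libraries. The control has the genotype label WT, and KO 1 and KO 2 the label podoplanin KO, with no allele, guide or treatment named for any of them. The sources used here do not say whether a KO line is 1 clone or whether libraries came from separate cultures. A p-value below weighs an effect against the spread between KO 1 and KO 2 within the lines, to which the single controls add nothing. Technical and clonal origins of that spread cannot be told apart.

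Podoplanin, encoded by PDPN, is a small mucin-like glycoprotein of the cell surface. Inside the cell its short tail binds ezrin and moesin, which tie the membrane to the actin skeleton. Outside the cell its sugar-bearing domain binds CLEC-2 on platelets. It is carried by lymphatic endothelium, some fibroblasts and the invading edge of several tumours, melanoma of the dog among them.

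The 3 libraries held 10719884 (control), 11807835 (KO 1) and 10847887 (KO 2) expected counts. KO 2 stood apart. Over the genes at a mean of 10 CPM or more, the chi-square per degree of freedom was 17.6 between control and KO 1, 73.8 between control and KO 2 and 61.5 between the KO lines. Several defining pigment cell markers were absent or nearly so from the cells labelled melanoma. TYR, DCT, MLANA, KIT and S100B had 0 counts in all 3 libraries, SOX10 had 0, 1 and 0, and PMEL stayed below 1 CPM. Of 35 listed pigment and melanocyte genes, 18 had at most 3 counts in every library and 11 had a mean of 10 CPM or more. The summed level of the 35 was 526.7, 598.1 and 727.0 CPM in control, KO 1 and KO 2. The rise of that sum was carried mainly by GPNMB, at 33.0, 83.0 and 246.4 CPM. MITF, the master regulator of melanocytes, stood at 21.2, 24.1 and 27.9 CPM in control, KO 1 and KO 2, and the melanosome transporter gene SLC45A2 at 58.7, 46.6 and 53.1 CPM. Of 16 listed fibroblast markers, 10 had at most 3 counts in every library, THY1 and POSTN among those at 0, and the summed level was 130.5, 171.9 and 206.2 CPM, carried mainly by PDGFRA and PRRX1. Of 16 listed immune markers, 12 had at most 3 counts in every library. Nearly all of the immune sum was the row of the B cell gene CD79A, at 1096, 1211 and 910.7 CPM, with its partner CD79B at 0 throughout. Reads of overlapping genes cannot be told apart in these counts. The part of these markers in the results was not tested.

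The targeted transcript was lower in both KO libraries. PDPN (ENSCAFG00000016363) had 212 counts in the control, 64 in KO 1 and 59 in KO 2, or 20.2, 5.59 and 5.58 CPM in that order. Both KO lines thus stood at 27.6% of the control, with 95% exact binomial intervals of the ratio of 0.206 to 0.367 in KO 1 and 0.203 to 0.370 in KO 2. These intervals, like all intervals of a ratio given here, cover counting error only. On the TPM scale, which also corrects for length, PDPN stood at 19.1, 5.71 and 5.96. The KO lines were level with each other and below the control. For the KO mean, edgeR's quasi-likelihood fit gave a log2 fold change of −1.86 (SE 0.35), an unadjusted p of 0.0014 and an adjusted p of 1 over all genes, and DESeq2 an adjusted p of 0.23. PRDM2, the gene next to PDPN in the RefSeq order of the assembly UU_Cfam_GSD_1.0, stood at 98.3, 94.5 and 73.5 CPM, so neither KO line was 2-fold away from the control there. A knockout can leave transcript in place, so these levels check the labels and say nothing of the protein.

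Set against the control, KO 2 differed at far more genes than KO 1, and mostly upward. With a prior count of 2, 250 members were at least 2-fold higher in KO 1 (2.23% of members) and 172 at least 2-fold lower (1.53%). In KO 2, 869 members were at least 2-fold higher (7.75%) and 406 lower (3.62%). Low counts made up a large part of this. At a mean of 10 CPM or more, 46 genes were higher in KO 1 (0.546%) and 14 lower (0.166%), against 386 higher (4.58%) and 120 lower (1.42%) in KO 2. On the log2(TPM + 1) scale, 33 of these 46 and 8 of these 14 genes in KO 1 were also past 2-fold, as were 362 of 386 and 90 of 120 in KO 2. Every one of them kept its direction there. With 1 library on each side these are descriptions without a replicate check.

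Most of what differed in KO 2 was carried by KO 2 alone, defined as past 2-fold in KO 2 and less than 1.5-fold in that direction in KO 1. At a mean of 10 CPM or more this held for 260 genes above the control (3.08%) and 102 below it (1.21%). A further 83 higher and 14 lower genes were between 1.5-fold and 2-fold in KO 1. Genes past 2-fold the same way in both KO lines numbered 37 higher and 4 lower. Over all members they numbered 146 and 54. A gene can reach the mean of 10 CPM through KO libraries where it is high, or miss it where they are low. The split at that mean is therefore tilted upward. KO 1 alone carried 5 higher and 4 lower genes, and 6 genes went in opposite directions. Both comparisons share the control, so a departure of that single library would appear as a change in both KO lines and cannot be told apart from one.

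**Figure D1:**
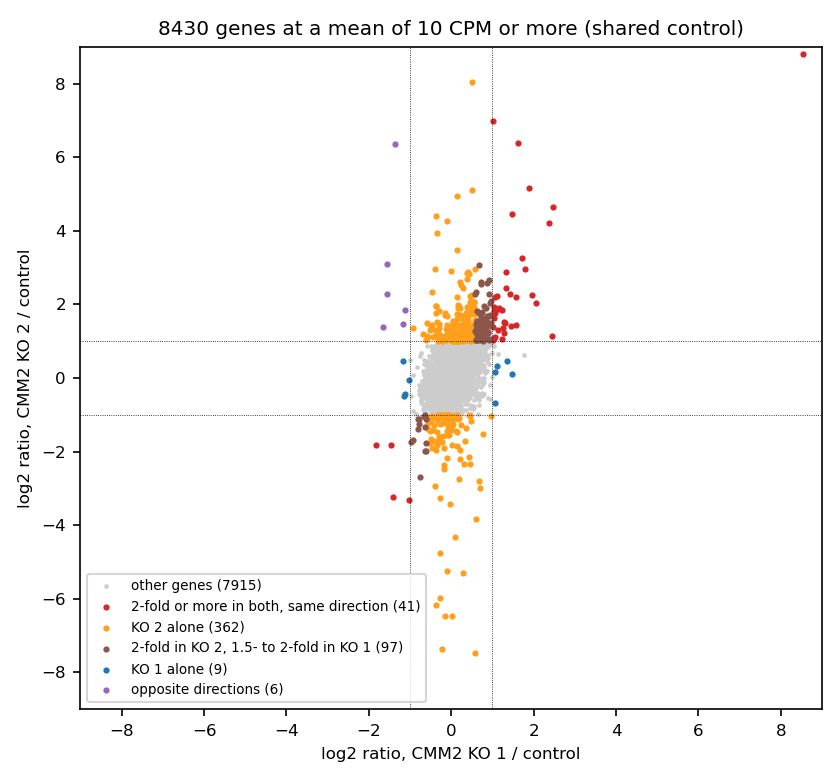
Log2 ratio of KO 2 to control (vertical axis) against log2 ratio of KO 1 to control (horizontal axis), in CMM2, for the 8430 genes at a mean of 10 CPM or more; colours give the classes and dotted lines mark 2-fold. The spread is wider on the vertical axis: 506 genes are past 2-fold in KO 2 and 60 in KO 1, and both axes use the same control.

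Across replicates, the test of the CMM2 KO mean against the control called no gene. By edgeR's quasi-likelihood test 0 of 12270 tested genes had an adjusted p under 0.05 (0.0%), and 11207 of the members were tested. At an unadjusted p under 0.05 there were 233. That is less than a share of 0.05 of the tested genes, which calibrated p-values would reach with no effect anywhere. DESeq2 called 6 genes (0.0489%). Those with a symbol were LARP6 and OLFML2B, which were higher, and TNS3 and TMLHE, which were lower. The model has 2 residual degrees of freedom, and the lone control is assumed to vary like the KO pairs.

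The leading genes higher in both KO lines included collagen and matrix genes and 1 smooth muscle gene, TAGLN. COL1A2, the second chain of type I collagen, stood at 156 CPM in the control, 870.4 in KO 1 and 3895 in KO 2. That is 5.58-fold (interval 5.30 to 5.88) and 25.0-fold (23.8 to 26.3). COL3A1, the chain of type III collagen, stood at 225.6, 627.7 and 4925 CPM, or 2.78-fold and 21.8-fold. In both collagens KO 1 lay well above the control and KO 2 several times above KO 1. LARP6, an RNA-binding protein that binds the 5′ stem-loop of type I collagen messages, stood at 3.91, 15.6 and 19.4 CPM. Its log2 fold change was 2.16 (SE 0.46), with a DESeq2 adjusted p of 0.011 and an edgeR adjusted p of 1. Here the KO lines lay close together and apart from the control.

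Other genes of this group kept to that order or sat level in the KO lines. TAGLN, the actin-binding transgelin of smooth muscle, had 15.4, 53.8 and 121.2 CPM in control, KO 1 and KO 2. WNT5B, a secreted ligand of non-canonical Wnt signalling, had 3.72, 19.9 and 72.7 CPM. OLFML2B, an olfactomedin-domain protein of the matrix, had 5.44, 18.4 and 54.3 CPM, a log2 fold change of 2.74 (SE 0.61) with a DESeq2 adjusted p of 0.015 and an edgeR adjusted p of 1. Its relative OLFML2A had 4.49, 19.3 and 19.1 CPM, so the 2 KO lines were level. CDH13, a cadherin held by a lipid anchor, had 17.5, 52.3 and 81.0 CPM. ID3, an inhibitor of helix-loop-helix factors and a BMP target, had 8.02, 21.8 and 40.1 CPM. TSPAN5, a tetraspanin that escorts ADAM10, had 7.16, 21.6 and 19.8 CPM. VWA1, a matrix protein, had 5.06, 14.2 and 13.7 CPM. SLC4A4, a sodium bicarbonate cotransporter, rested on 2, 11 and 328 counts, and its ratio in KO 1 had an interval of 1.10 to 46.7.

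**Figure D2:**
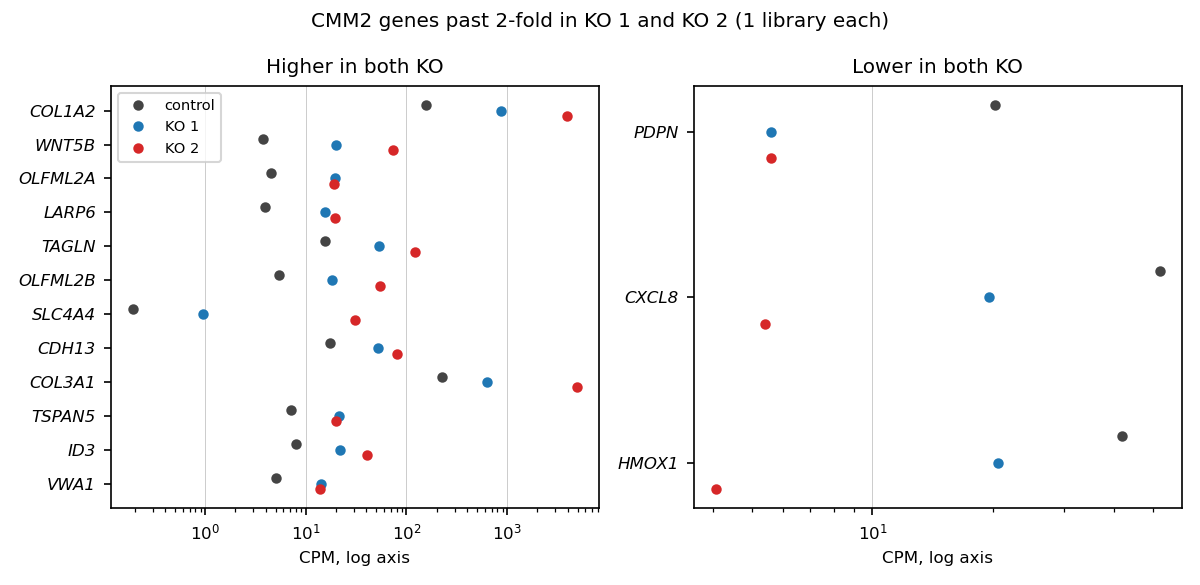
CPM (log axis) of the named genes past 2-fold the same way in KO 1 and KO 2, with 1 point per CMM2 library. In the left panel both KO points lie right of the control for all 12 genes, and in the right panel PDPN has level KO points while CXCL8 and HMOX1 lie lower in KO 2 than in KO 1.

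At a mean of 10 CPM or more, 4 genes were past 2-fold downward in both KO lines, namely PDPN, CXCL8, HMOX1 and 1 gene without a symbol. Over all members this held for 54 genes. CXCL8, the neutrophil chemokine interleukin-8, stood at 52.0 CPM in the control, 19.5 in KO 1 and 5.39 in KO 2, which is a ratio of 0.374 (interval 0.319 to 0.438) and 0.104 (0.0774 to 0.136). HMOX1, the heme-degrading heme oxygenase, stood at 41.9, 20.6 and 4.07 CPM. In both genes KO 2 lay well below KO 1. The gene without a symbol, ENSCAFG00000000641, stood at 195.6, 70.4 and 55.2 CPM and was called by DESeq2 with an adjusted p of 0.011.

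A few genes were at 0 on one side, a pattern looked for after values were seen, as 3 counts or fewer on one side and 3 CPM or more on the other. TNS3, tensin-3, which links integrins to actin at focal adhesions, had 65 counts in the control and 0 in each KO library. It was at least 23.7-fold lower in KO 1 and at least 21.9-fold lower in KO 2, taken against a floor of 3 counts per library. Its DESeq2 adjusted p was 0.0059 and its edgeR adjusted p was 1. TMLHE, the first enzyme of carnitine synthesis, had 39, 0 and 0 counts, with a DESeq2 adjusted p of 0.027 and an edgeR adjusted p of 1. Conversely ENSCAFG00000003126 had 0, 776 and 874 counts. It was at least 236.7-fold higher in KO 1 and at least 288.6-fold higher in KO 2, with a DESeq2 adjusted p of 2.5e-04 and an edgeR adjusted p of 1. In this last gene the CMM12 libraries had the same shape, at 0.0863 CPM in the control and 82.9 and 21.3 CPM in KO 1 and KO 2. The files do not pair it with a symbol.

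Genes higher in KO 2 alone included receptors, ligands and an inflammasome gene. NLRP3, the sensor of the inflammasome, had 2 counts in the control, 4 in KO 1 and 1042 in KO 2, which is 98.5 CPM and a ratio of 516.2 (interval 142.5 to 4268). JAG1, a ligand of Notch receptors, stood at 21.8, 20.2 and 425.7 CPM, level in control and KO 1 and 19.6-fold higher in KO 2 (interval 17.1 to 22.4). TCF7, a transcription factor of the Wnt pathway, stood at 0.859, 0.961 and 32.2 CPM. Each of these 3 genes was within counting error of the control in KO 1.

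PLXNA2, a plexin receptor for semaphorins, stood at 5.25, 5.77 and 60.6 CPM. ABCA1, the pump that loads cholesterol onto apolipoproteins, stood at 39.3, 58.4 and 310.2 CPM. The receptor tyrosine kinase genes FGFR2 (4.20, 3.14 and 33.8 CPM) and INSR (3.63, 4.89 and 27.9 CPM) behaved alike, near the control in KO 1 and far above it in KO 2. COL15A1, a collagen of basement membrane zones, stood at 51.5, 51.4 and 387.3 CPM. MAMDC2, RAP1GAP2, SERPINB8 and SYTL2 completed the 12 highest, with log2 ratios of 4.41, 3.94, 2.85 and 2.82 in KO 2 and −0.38 to 0.44 in KO 1. This class requires the KO lines to differ, and that gap enters the spread used to test their mean. The choice thus raises the p-values of the KO mean, which do not weigh the KO 2 change by itself. Per-gene edgeR p-values of the KO mean were 0.047 to 0.25 for these 12 genes, and the adjusted p was 1 for each.

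**Figure D3:**
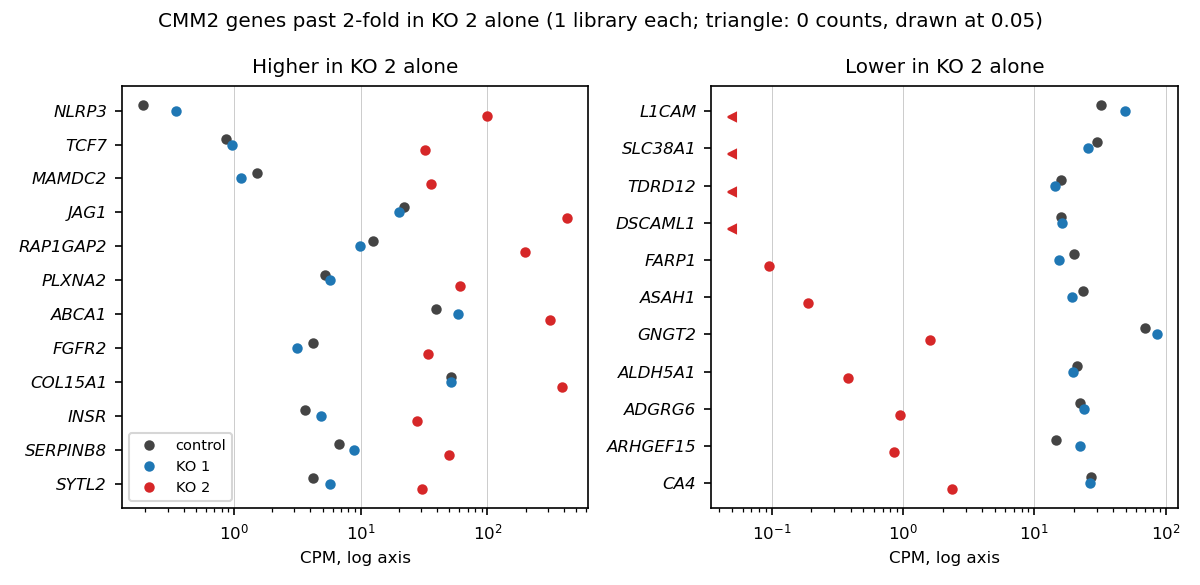
CPM (log axis) of 12 higher and 11 lower genes taken from those with the largest KO 2 ratios among genes past 2-fold in KO 2 alone, with 1 point per CMM2 library and triangles for 0 counts. Control and KO 1 points lie nearer to each other than to the KO 2 point, at 0 counts for L1CAM, SLC38A1, TDRD12 and DSCAML1.

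Among genes lower in KO 2 alone, several were not detected in that library. L1CAM, a neural cell adhesion molecule that is also carried by invasive tumours, had 339 counts in the control, 557 in KO 1 and 0 in KO 2, so it was at least 114.1-fold lower there. SLC38A1, a glutamine transporter gene, had 317, 295 and 0 counts, at least 106.7-fold lower in KO 2. TDRD12, a germline piRNA factor, had 169, 165 and 0 counts, and DSCAML1, an adhesion molecule of neurons, had 168, 186 and 0 counts. A count of 0 in KO 2 allows up to 0.284 CPM. FARP1, a guanine nucleotide exchange factor, had 208, 175 and 1 counts, a ratio of 0.00476 (interval 0.00012 to 0.0268). ASAH1, the lysosomal acid ceramidase, had 244, 222 and 2 counts, a ratio of 0.00812 (interval 0.000978 to 0.0297).

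The remaining named genes of this class were low in KO 2 but detected: GNGT2 stood at 69.8, 85.3 and 1.61 CPM in control, KO 1 and KO 2, ALDH5A1 at 21.0, 19.6 and 0.378 CPM, and CA4 at 27.0, 26.4 and 2.36 CPM. ADGRG6 and ARHGEF15 had log2 ratios of −4.32 and −3.84 in KO 2 and 0.09 and 0.60 in KO 1. By the rule of 3 counts, 18 genes were off in KO 2 only and 12 were on in KO 2 only. For KO 1 these numbers were 1 (FAM184B, with 58, 0 and 66 counts) and 0. Besides those named above, the genes off in KO 2 included the receptor gene ERBB4 (33, 47 and 0 counts), the exchange factor gene VAV3 (66, 86 and 0) and the neuropeptide gene NTS (90, 81 and 0). ANPEP, aminopeptidase N, was off in KO 2 with 51, 237 and 0 counts, and was 4.25-fold above the control in KO 1 (interval 3.13 to 5.87). Genes on in KO 2 only included SMOC2, a matricellular protein gene (0, 0 and 100 counts), the netrin receptor gene UNC5B (0, 2 and 75) and the Hes-family repressor gene HES4 (0, 0 and 43).

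At a mean of 10 CPM or more, 9 genes were past 2-fold in KO 1 alone, against 122 over all members. STRA6, the receptor for retinol-binding protein, stood at 10.7 CPM in the control, 30.1 in KO 1 and 11.4 in KO 2, or 2.82-fold in KO 1 (interval 2.27 to 3.52). SORBS3, the vinculin-binding vinexin, stood at 6.11, 15.9 and 8.42 CPM, and the motor gene MYO1D at 63.4, 132.0 and 70.5 CPM. DNAH5 and OBSL1 had log2 ratios of 1.11 and 1.06 in KO 1. Lower in KO 1 alone were the Golgi protein gene GOLM1 (21.6, 9.52 and 30.0 CPM), CENPV (17.8, 7.95 and 12.7 CPM), the kinase gene SGK1 (15.9, 7.16 and 11.7 CPM) and ACP6 (19.9, 9.7 and 19.4 CPM). In opposite directions went SULF2, a heparan sulfatase of the cell surface, at 6.01, 1.92 and 52.8 CPM, and FHOD3, a formin that builds actin filaments, at 13.9, 6.29 and 51.2 CPM. TBC1D30, SFXN4 and FAM20A showed the same shape, with log2 ratios of −1.57, −1.65 and −1.35 in KO 1 and 2.29, 1.40 and 6.36 in KO 2. FAM20A rested on 3, 0 and 407 counts.

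X-linked genes were higher as a group in KO 2 and not in KO 1, a grouping chosen after values were seen. Chromosomes were read by symbol from RefSeq's table of the assembly UU_Cfam_GSD_1.0, which is not the build of the counts, for 7610 of the 7807 genes with a symbol at a mean of 10 CPM or more. The 205 X-linked genes had a median log2 ratio of 0.67 in KO 2, a 1.59-fold level, and 191 of them lay above the control. In KO 1 their median was 0.01, with 103 of 205 above the control. The 7402 autosomal genes had a median of −0.04 in KO 2, and single autosomes with 50 or more genes had medians between −0.31 and 0.29. In KO 2, 48 X-linked genes were past 2-fold upward (23.4%), against 308 autosomal genes (4.16%), and 3 were past it downward, namely L1CAM, GPC3 and GRIA3. X-linked genes made up 2.69% of the matched genes and 13.4% of those past 2-fold upward in KO 2. In the CMM12 KO libraries the X-linked medians were 0.03 and 0.09. Genes of 1 chromosome are not independent of each other and each KO line is 1 library, so no test was made. Without X-linked genes, 338 genes were past 2-fold upward and 117 downward in KO 2, and 215 and 99 in KO 2 alone.

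**Figure D4:**
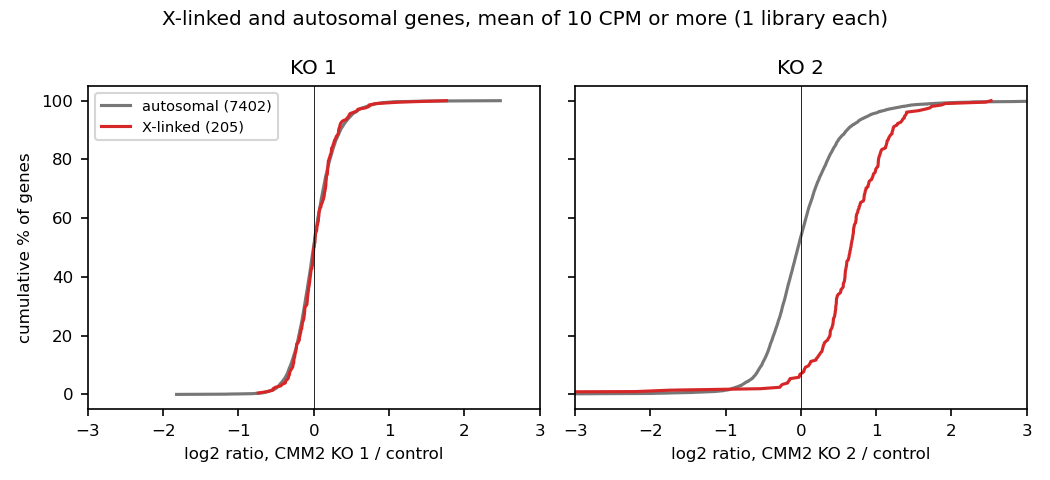
Cumulative share of genes (vertical axis, percent) by log2 ratio to the CMM2 control (horizontal axis) for 205 X-linked and 7402 autosomal genes at a mean of 10 CPM or more, with KO 1 left and KO 2 right. The lines overlie each other in KO 1, and the X-linked line lies to the right in KO 2, with medians of 0.67 and −0.04.

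Gene lists were described by their members at a mean of 10 CPM or more. A gene can reach that mean through the library where it is high, or miss it through the one where it is low, so these counts and medians are descriptions of the genes kept and support nothing further. They stand against medians of 0.00 in KO 1 and −0.03 in KO 2 over all 8430 such genes. Of these 8430 genes, 0.546% were past 2-fold upward and 0.166% downward in KO 1, and 4.58% and 1.42% in KO 2. Over all 11220 genes of the comparison the shares were 2.23% and 1.53% in KO 1, and 7.75% and 3.62% in KO 2. Every list count below is to be read beside these shares. The collagen list, of chains and of the enzymes that modify, fold and crosslink them, stood highest. Of its 30 members, 17 were past 2-fold upward in KO 2 and 0 downward (4.58% and 1.42% of all genes), 9 of them in KO 2 alone, and the median was 1.08. In KO 1, 3 were past 2-fold upward and 0 downward, with a median of 0.37 and 28 of 30 above the control. Besides COL1A2 and COL3A1, the fibrillar chain gene COL5A1 stood at 120.7, 215.7 and 451.3 CPM and COL1A1 at 1007, 1689 and 2218 CPM. COL6A1 stood at 860.1, 1192 and 3365 CPM and COL6A3 at 109.8, 164.9 and 539.9 CPM, both chains of the beaded filaments of type VI collagen. The collagen chaperone gene SERPINH1 stood at 823.2, 974.6 and 1796 CPM and the crosslinking oxidase gene LOXL2 at 103.3, 170.2 and 257.5 CPM. In each of these 6 genes the order was control, KO 1, KO 2. COL16A1 was the lowest, at 215.0, 253.6 and 142.1 CPM. Over all 32 members of the list, 18 were past 2-fold upward and 0 downward in KO 2. Of the 17 upward at a mean of 10 CPM or more, 2 lay under 10 CPM in the control. None of the 30 is X-linked in the table. The list was chosen with earlier results of these libraries known, so its direction is not independent evidence.

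Matrix glycoproteins and proteoglycans lay mostly above the control in both KO lines, 30 of 33 members in KO 1 and 27 in KO 2. Of the 33, 15 were past 2-fold upward and 2 downward in KO 2 (median 0.74), and 2 upward and 0 downward in KO 1 (median 0.37). SPARC, a collagen-binding matricellular protein, stood at 132.0, 146.7 and 527.5 CPM, and FBN1, the microfibril protein fibrillin-1, at 487.5, 869.9 and 1339 CPM. The small proteoglycan gene BGN stood at 496.5, 826.2 and 1461 CPM and the glypican gene GPC4 at 5.35, 6.11 and 20.7 CPM, and both are X-linked. Without its 3 X-linked members the list had 13 of 30 past 2-fold upward and a median of 0.73 in KO 2. FBLN2, a fibulin of elastic fibres, went the other way at 13.1, 17.9 and 2.46 CPM, as did GPC3 at 13.6, 15.9 and 2.84 CPM. Over all 41 members 18 were past 2-fold upward and 3 downward in KO 2. Of the 15 upward at a mean of 10 CPM or more, 4 lay under 10 CPM in the control.

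Proteases and their inhibitors separated the KO lines more sharply. Of 17 members, 8 were past 2-fold upward in KO 2, 7 of them in KO 2 alone, with a median of 0.97, and none was in KO 1 (median 0.06). Over all 28 members 13 were past 2-fold upward and 1 downward in KO 2. That 1 is the stromelysin gene MMP3, at 13.6, 8.30 and 1.51 CPM, which the mean of 10 CPM leaves out. TIMP1, an X-linked inhibitor of metalloproteinases, stood at 231.8, 282.1 and 1272 CPM, and MMP14, a collagenase of the cell surface, at 466.7, 484.3 and 939.5 CPM. PLAU, the urokinase activator of plasminogen, stood at 110.5, 79.9 and 302.3 CPM. Control and KO 1 lay within 1.5-fold of each other in all 3.

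TGF-beta and guidance genes were higher in KO 2 as well. In the TGF-beta and BMP list, 6 of 22 members were past 2-fold upward and 0 downward in KO 2 (median 0.58), and 2 upward and 0 downward in KO 1 (median 0.20). Of those 6, 3 lay under 10 CPM in the control (TGFB2, SMAD3 and ID3) and reached the mean through the KO libraries. Over all 28 members 7 were past 2-fold upward and 1 downward in KO 2, and 4 and 0 in KO 1. The ligand genes TGFB1 (39.6, 40.8 and 87.5 CPM) and TGFB2 (5.35, 7.42 and 22.8 CPM) and the latency protein gene LTBP1 (203.2, 226.4 and 523.8 CPM) were higher in KO 2 alone. The signal transducer gene SMAD3 was higher in both, at 7.64, 17.3 and 29.3 CPM, and so was ID3. Of 21 semaphorin, ephrin and other guidance genes, 8 were past 2-fold upward and 0 downward in KO 2 (median 0.63), and 1 upward and 0 downward in KO 1 (median 0.08). Over all 32 members 14 were upward and 1 downward in KO 2. SEMA3F (10, 25.1 and 28.4 CPM) was the one past it in both. NRP1, a co-receptor for semaphorins and VEGF, stood at 48.2, 37.2 and 165.8 CPM, and EFNB1, an X-linked ephrin, at 28.4, 33.5 and 164.7 CPM.

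**Figure D5:**
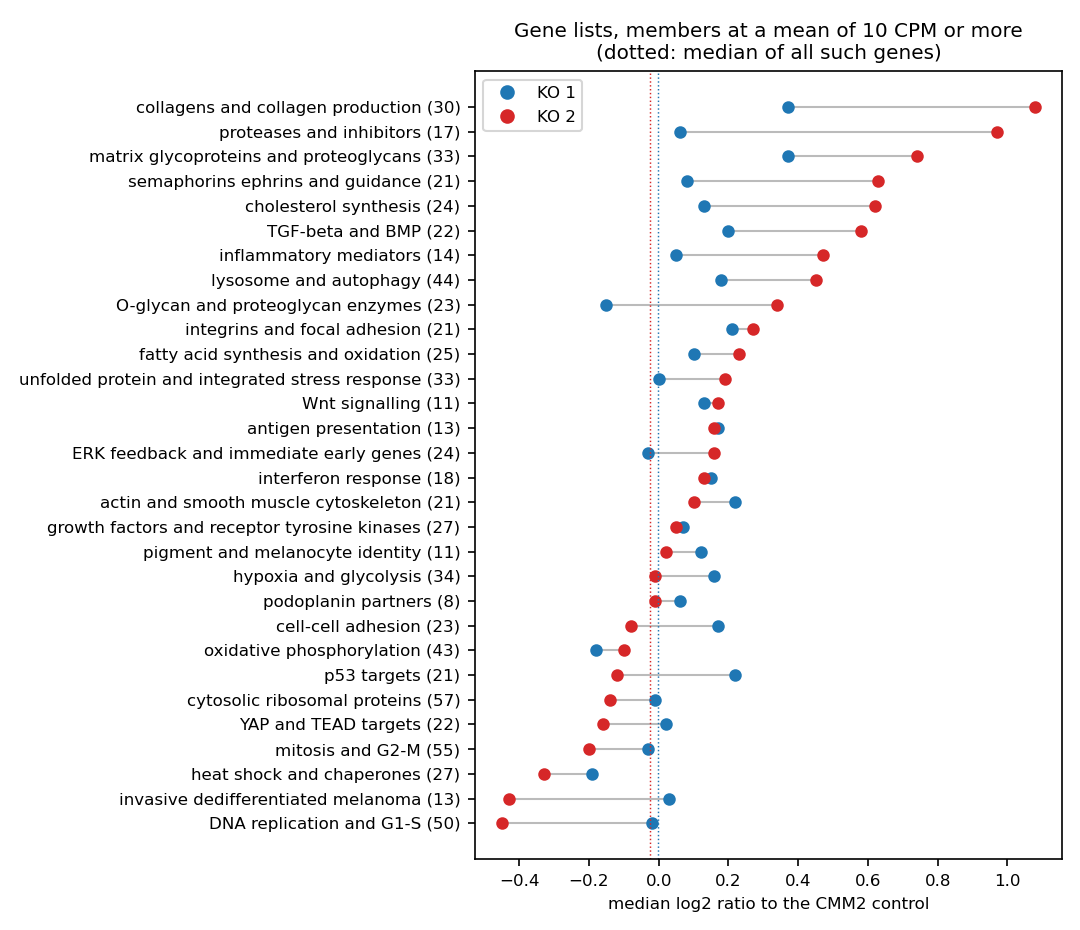
Median log2 ratio to the CMM2 control (horizontal axis) in KO 1 and KO 2 for gene lists with at least 8 such genes, over members at a mean of 10 CPM or more (their number in brackets); dotted lines mark the median of all such genes. KO 2 reaches 1.08 for collagens and −0.45 for DNA replication, where KO 1 stands at 0.37 and −0.02.

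None of podoplanin's own partners at a mean of 10 CPM or more was past 2-fold in either KO line. The list of podoplanin and its partners had 8 members at this level, and only PDPN was past 2-fold, in both KO lines. EZR, which encodes ezrin, stood at 1217, 1324 and 1160 CPM, and RDX, which encodes radixin, at 343.4, 346.6 and 267.2 CPM. MSN, the X-linked gene of moesin, stood at 324.0, 346.5 and 602.1 CPM, or 1.86-fold in KO 2 (interval 1.78 to 1.94). CD44, the hyaluronan receptor that associates with podoplanin, stood at 363.0, 409.8 and 621.1 CPM. Neither reached 2-fold.

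The actin list had TAGLN as its only member past 2-fold in either KO line, of 21. All 21 lay above the control in KO 1 (median 0.22), and 14 did in KO 2 (median 0.10). Among 21 integrin and focal adhesion genes, 4 were past 2-fold upward and 2 downward in KO 2, and 1 upward in KO 1. Over all 24 members these were 6 and 3 in KO 2, against 7.75% and 3.62% of all 11220 genes. In KO 1, 1 was upward and 2 were downward, against 2.23% and 1.53%, with TNS3 among the lower ones. ITGB5 was higher in both, at 19.2, 39.8 and 68.3 CPM. ITGB3 (182.7, 148.1 and 471.1 CPM) and ITGAV (103.7, 144.7 and 228.1 CPM), the chains of the vitronectin receptor, were higher in KO 2 alone. ITGA3, a laminin receptor chain, was lower in KO 2 alone at 483.1, 536.8 and 221.5 CPM, as was the adaptor gene PXN, which encodes paxillin, at 247.7, 230.2 and 91.8 CPM.

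Cholesterol and lysosome genes lay mostly above the control in KO 2, 22 of 24 and 37 of 44. Of 24 genes of cholesterol synthesis and handling, 7 were past 2-fold upward and 0 downward in KO 2 (median 0.62), and 0 either way in KO 1 (median 0.13). SREBF2, the regulator of the pathway, stood at 109.1, 151.8 and 236.4 CPM, INSIG1, which retains it in the endoplasmic reticulum, at 107.8, 95.3 and 234.0 CPM, and HMGCS1 at 40.5, 35.2 and 81.6 CPM. Of 44 lysosome and autophagy genes, 8 were past 2-fold upward and 2 downward in KO 2 (median 0.45). Of those 8, 4 are X-linked: GLA (11, 12.6 and 36.5 CPM), IDS (79.2, 88.7 and 187.1 CPM), LAMP2 (54.7, 57.4 and 125.0 CPM) and ATP6AP1 (59.1, 71.3 and 132.9 CPM). Without X-linked members the lysosome list had 4 of 39 past 2-fold upward and a median of 0.41. The oxidative phosphorylation list went the other way and lay further from 0 in KO 1, with 38 of 43 genes below the control and a median of −0.18, than in KO 2, with 30 of 43 and −0.10.

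DNA replication genes were lower in KO 2 by a small and broad margin. Of 50 members, 45 lay below the control in KO 2 with a median of −0.45, while 1 was past 2-fold. In KO 1 the median was −0.02, with 28 below. ORC1, a subunit of the origin recognition complex, stood at 111.0, 93.9 and 53.6 CPM, the licensing factor gene CDT1 at 81.4, 80.5 and 43.0 CPM, and MCM5, of the replicative helicase, at 370.4, 402.4 and 223.7 CPM. Fewer cells of a phase and less RNA per cell cannot be told apart in bulk RNA. The 55 mitosis genes had medians of −0.03 and −0.20 in KO 1 and KO 2, and 57 cytosolic ribosomal protein genes −0.01 and −0.14, with 1 gene of each past 2-fold in KO 2. The 21 p53 targets had medians of 0.22 and −0.12, and the 22 YAP and TEAD targets 0.02 and −0.16.

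Set beside CMM12, the genes that stood higher in both CMM2 KO lines did not stand higher there as a rule. Of the 37, 9 were higher in both CMM12 KO libraries than in their control (24.3%), against 34.2% of all 8430 genes. Another 18 were lower in both (48.6%), against 35.5% of all 8430 genes, and 10 were split. COL1A2 stood at 5283, 2879 and 4205 CPM in the CMM12 control, KO 1 and KO 2, and WNT5B at 218.8, 34.2 and 81.0 CPM. TAGLN was above its control in both lines, at 33.5, 203.6 and 67.6 CPM in CMM12. CXCL8 was higher with the knockout in CMM12, at 12.2, 28.9 and 105.2 CPM. Of the 260 genes higher in KO 2 alone, 75 were higher in both CMM12 KO libraries and 104 lower in both (40%). The difference between the lines' KO effects was called for 0 genes by edgeR and for 22 by DESeq2 (0.179%). By edgeR 471 of 12270 genes had an unadjusted p under 0.05, again less than a share of 0.05.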

How the data were processed

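RNA sequencing of 6 libraries was deposited; this account uses the 3 of CMM2, and those of CMM12 for the spread and for comparison. Per the labels' protocols, an RNeasy mini kit gave the RNA and a NEBNext Ultra RNA kit the libraries. The submitters' processing notes list CanFam3.1 as the build, and as tools RSEM 1.3.3 and STAR 2.7.3a. No strand setting is stated in the sources used here, so a gene and an antisense partner, or near-identical copies, cannot be told apart. The authors deposited expected counts, not scaled between libraries, and TPM values, per the file headers. A deposited length column was not used in any test.

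Expected counts were rounded, which changed 3.22% to 3.63% of values. Rows without a symbol took 7.89% to 8.85% of counts and stayed in the tests under their identifiers. Of 2050 rows that share a symbol with another, the row of highest mean count was taken for each symbol. The test was edgeR 4.0.16 (glmQLFit, glmQLFTest, R 4.3.3) with TMM factors, filterByExpr, a model of 4 group means and Benjamini-Hochberg adjustment at 0.05. Ratios per KO library are log2 of TMM-scaled CPM with a prior count of 2. DESeq2 1.42.0, limma 3.58.1 on log2(TPM + 1) and log2(TPM + 0.1), and other scalings were alternatives. The code was tested on simulated counts.

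Genes named are PDPN, genes called by edgeR or DESeq2 and, with a symbol and a mean of 10 CPM or more, the 12 highest and 12 lowest by the smaller ratio among those past 2-fold in both, the same by the KO 2 ratio in KO 2 alone, up to 6 each in KO 1 alone, all in opposite directions, and up to 6 past 2-fold from each list (or its 2 highest by CPM). Other genes given, including markers, level members of lists, neighbours, genes at 0 and X-linked genes, were chosen after their values were seen. Members and lists were chosen with earlier results of these data known. A floor of 3 counts per library (0.262 to 0.286 CPM in CMM2 after TMM scaling) was used for folds against 0. Intervals are exact Clopper-Pearson at 95%. A few genes and 1 gene list that these rules picked are not reported here. No protein, promoter or guide sequence was used here.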

Additional observations from a re-analysis of the deposited data

Results flagged for a closer look

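The 5 genes below, among those the naming rule picked, had KO effects that differed between CMM2 and CMM12 by the DESeq2 test of the difference itself, although edgeR's adjusted p for that difference was 1 for each. The difference is the log2 fold change in CMM2 minus that in CMM12. ID3 differed by 4.17 (SE 0.74, adjusted p 5.9e-05), from 1.95 in CMM2 and −2.22 in CMM12. OLFML2B differed by 3.67 (SE 0.83, adjusted p 0.01) and CDH13 by 3.12 (SE 0.73, adjusted p 0.013), each higher in CMM2 and lower in CMM12. TIAM1, a Rac exchange factor, differed by 7.13 (SE 1.29, adjusted p 8.1e-05), with 0.87 in CMM2 and −6.25 in CMM12. Its CMM2 change was carried by KO 2 alone, with log2 ratios of −0.11 in KO 1 and 1.44 in KO 2. TNS3 differed by −9.17 (SE 2.00, adjusted p 0.0054), with −8.54 in CMM2 and 0.63 in CMM12. Each line has 1 control library, so a departure of that library and an effect of the knockout cannot be told apart.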

How the results depend on the processing

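By edgeR, 0 genes were called in CMM2 and 0 for the difference between lines with median-of-ratios factors, a filter of 10 counts in a CMM2 library, a robust fit, the other setting of the spread estimate, and with a replicate block (0 and 0). The KO numbers are shared only between CMM2 and CMM12, and 2 pairs cannot show whether they pair the samples. In CMM2, DESeq2 called 6 genes, no low-count filter 1, and CMM2 libraries alone 1. Leaving out 1 KO library gave 0 to 1, where the 1 came without either CMM12 KO library. For the difference, DESeq2 called 22 (adjusted p NA for 1428 genes) and no low-count filter 2, and leaving out 1 library gave 0 to 1. limma on log2(TPM + 1) called 0 and 0 with a filter, and 182 and 584 without it; the cause was not tested.

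Over all members 422 genes were past 2-fold in KO 1, 1275 in KO 2, 802 in KO 2 alone and 122 in KO 1 alone. At a mean of 10 CPM or more these were 60, 506, 362 and 9, from fewer genes, and with no minimum count 984, 2228, 1362 and 308, from more. On log2(TPM + 1) KO 1 had 147 and KO 1 alone 48, since that pseudocount shrinks low genes. Scaling by library totals or median-of-ratios, and a prior count of 0.5, kept all 4 within 1.5 times. The 9 genes of KO 1 alone were split 5 higher and 4 lower, and 3 and 4 on log2(TPM + 1). No ratio of a named gene past 2-fold turned its direction under any alternative. Sizes were less stable on log2(TPM + 1), where 69 gene ratios counted as moved and 341 as the same. For list medians these numbers were 8 and 56 there, and 2 and 62 with library totals. Counts at a mean of 10 CPM or more, those without X-linked genes and list counts over all members were added after the data were seen.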

Other observations

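Single autosomes also had medians away from 0, with chromosomes again taken by symbol from the assembly UU_Cfam_GSD_1.0 and the choice made after values were seen. The 80 genes of chromosome 32 at a mean of 10 CPM or more had a median log2 ratio of 0.28 in KO 1, with 73 above the control, and 0.07 in KO 2. The 209 genes of chromosome 4 had a median of −0.27 in KO 1, with 176 below the control, and −0.22 in KO 2. Chromosome 24 had a median of 0.29 in KO 2, where 169 of 197 genes lay above the control, and −0.02 in KO 1. Chromosome 7 had −0.31 in KO 2 and −0.02 in KO 1. PDPN lies on chromosome 2, with medians of 0.00 in KO 1 and −0.20 in KO 2. In CMM12 the chromosome 36 genes reached −0.83 in KO 1 and −0.30 in KO 2. Their part in the differences of single genes was not tested.

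Several further groups held genes that stood apart from the rest of their list. In the pigment list GPNMB, a melanosomal glycoprotein also made by other cells, was the only one of 11 members past 2-fold, at 33.0, 83.0 and 246.4 CPM in control, KO 1 and KO 2. Of 13 genes of the invasive melanoma state at a mean of 10 CPM or more, 3 were lower in KO 2 alone and 0 higher. Over all 8430 such genes, 1.21% were lower and 3.08% higher in KO 2 alone. Over all 22 members of that list, 3 were past 2-fold upward and 6 downward in KO 2, against 7.75% and 3.62% of all 11220 genes. CDH2, N-cadherin, stood at 320.1, 317.3 and 151.8 CPM and the water channel gene AQP1 at 12.2, 19.6 and 1.61 CPM. Of 14 inflammatory mediators at a mean of 10 CPM or more, 2 were past 2-fold upward and 2 downward in KO 2. Over all 23 members these were 7 and 2. The receptor gene IL1R1 stood at 13.1, 9.43 and 66.5 CPM, and OSMR, the oncostatin M receptor gene, at 150.2, 109.7 and 56.6 CPM. Of 34 hypoxia and glycolysis genes at that mean, 4 were past 2-fold upward and 1 downward in KO 2. Over all 8430 such genes the shares were 4.58% and 1.42%. ADM, the hypoxia-inducible adrenomedullin gene, was the 1 downward, at 493.2, 467.3 and 219.4 CPM. NDRG1, among the 4 upward, stood at 34.0, 27.6 and 95.1 CPM. The small heat shock genes HSPB1 (18.0, 30.0 and 57.9 CPM) and HSPB6 (7.92, 13.8 and 20.0 CPM) lay above the control in both KO lines, against a list median of −0.19 in KO 1 and −0.33 in KO 2.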
